A study of Homo sapiens with 18 samples.

Results

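The HOX cluster genes encode the homeodomain transcription factors that give cells their position along the body axis. All 39 protein-coding genes named HOXA, HOXB, HOXC or HOXD with a paralog number in GENCODE release 44 were taken, out of 62703 genes in the files, of which 20015 were protein coding. The HOXA cluster on chromosome 7 held 11 of them, HOXB 10 (hg38 chr17:48528526-48728750, 200.2 kb), HOXC 9 (chr12:53938831-54056030, 117.2 kb) and HOXD 9 (chr2:176092721-176190907, 98.2 kb). The paralog number rises from the 3′ end of a cluster to its 5′ end, the HOXC genes starting at group 4, and all genes of a cluster are read from the same strand.

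HOX clusters are the classic targets of Polycomb repression. Polycomb repressive complex 2 (PRC2) trimethylates histone H3 at lysine 27 through its catalytic subunit EZH2 or EZH1, and the mark is read by CBX proteins of Polycomb repressive complex 1. Trithorax-group methyltransferases keep active HOX genes in the opposite state. Groups 1 to 3 are called anterior here, groups 4 to 8 central and groups 9 to 13 posterior, after the part of the embryo in which they act. The HOXD cluster also holds HAGLR, a long noncoding RNA read from the opposite strand, from HOXD1 back into HOXD3.

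The cells were MDA-MB-231, a human triple-negative breast cancer line with mesenchymal features, and their poly(A) RNA was sequenced in 5 groups of 2 libraries. Cells of 3 groups received lentivirus carrying a control shRNA, an shRNA to EZH2 (shEZH2) or an shRNA to E2F1 (shE2F1) for 24 h and then puromycin at 2 µg/ml for 72 h, and cells of the other 2 groups were kept for 72 h in DMSO or in 1 µM GSK126, which blocks EZH2 as a methyltransferase. The paper lists 1 target sequence for each shRNA, so an off-target effect of a hairpin cannot be told apart from loss of its target. The 18 records held 10 distinct libraries, 8 records being exact copies of others, which were not counted again. Nothing in the labels says that the 2 libraries of a group came from separate cultures, so p-values measure only the spread between these libraries, which may be technical.

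Total estimated counts ran from 13198932 to 20055550 per library, so that 3 counts, taken as the detection floor, were 0.15 to 0.227 CPM (counts scaled to a common library total). That floor covers counting error only. EZH2 was at 152.7 and 180.6 CPM in control shRNA, at 52.6 and 44.8 in shEZH2 and at 121.2 and 137.2 in shE2F1, and at 122.9 and 126.5 in DMSO against 133.2 and 142.1 in GSK126. E2F1 was at 143.0 and 138.4 CPM in control shRNA, 25.96 and 22.5 in shE2F1, and also lower in shEZH2, at 62.4 and 32.3. In the DMSO and GSK126 libraries it was at 83.7, 108.4, 102.0 and 118.3 CPM. All 7 genes listed as high in this line, among them VIM and CD44, were detected in every group. Of 7 listed as low, ESR1 and PGR were at 0 in control shRNA and 5 were detected, with a sum of 115.4 to 130.4 CPM there and GATA3 at 15.1 and 12.4. Of 4 leukocyte markers 2 were detected in every group, with PTPRC at 41 counts over the 10 libraries, and the sum of the 4 was 0.420 to 1.87 CPM. Of 6 fibroblast markers, DCN was at 0 throughout, and the summed level of the 6 was 24.1 to 29.4 CPM in control shRNA, 50.9 to 71.3 in shEZH2, 20.9 to 21.4 in shE2F1, 24.2 to 25.6 in DMSO and 27.8 to 31.9 in GSK126.

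Most HOX genes were off in these cells. By the mean level over the 10 libraries in TPM (a per-length scale of transcripts), 24 of 39 genes (61.5%) lay below 0.1 TPM and are called silent, 8 lay between 0.1 and 1 TPM and are called low, and 7 reached 1 TPM and are called expressed. Among all 20015 protein-coding genes 29.9% were silent and 59.6% expressed. A list of 54 other developmental homeobox genes known as Polycomb targets stood close to the HOX genes, with 33 silent (61.1%) and 11 expressed. No test was made of these shares.

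The 4 clusters differed in how many of their genes were read. HOXA had no expressed gene, 1 low gene and 10 silent genes, 9 of them without a single count in any library. HOXB had 3 expressed, 3 low and 4 silent genes. HOXC had 1 expressed, 4 low and 4 silent genes. HOXD had 3 expressed and 6 silent genes and none between.

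Silent genes lay side by side. The 6 genes from HOXD8 to HOXD13 were silent over 40 kb with 7 counts, and the 4 genes from HOXC10 to HOXC13 over 51.4 kb with 1 count. In HOXB the only such run was HOXB5 and HOXB6, with 10 counts, and it stood between expressed or low neighbours. By position, 13 of 16 posterior genes (81.2%) were silent, against 7 of 15 central (46.7%) and 4 of 8 anterior genes (50%). The posterior genes above 0.1 TPM were HOXB9, HOXC9 and HOXA13, the last gene of its cluster.

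A count of 0 in all libraries was found for 18 HOX genes (46.2%). The share was 17.4% among protein-coding genes and 31.5% among the 54 other developmental homeobox genes. The 18 included HOXA9, HOXA10, HOXA11, HOXB1, HOXB13, HOXC10, HOXC12, HOXC13, HOXD8, HOXD9, HOXD11 and HOXD13. Over 177250235 counts in all, 0 counts allow a level of up to 0.0169 CPM. The same-strand readthrough loci that share exonic bases with HOXA3, HOXA4, HOXA6, HOXA9 and HOXA10 were at 0 counts too.

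**Figure D1:**
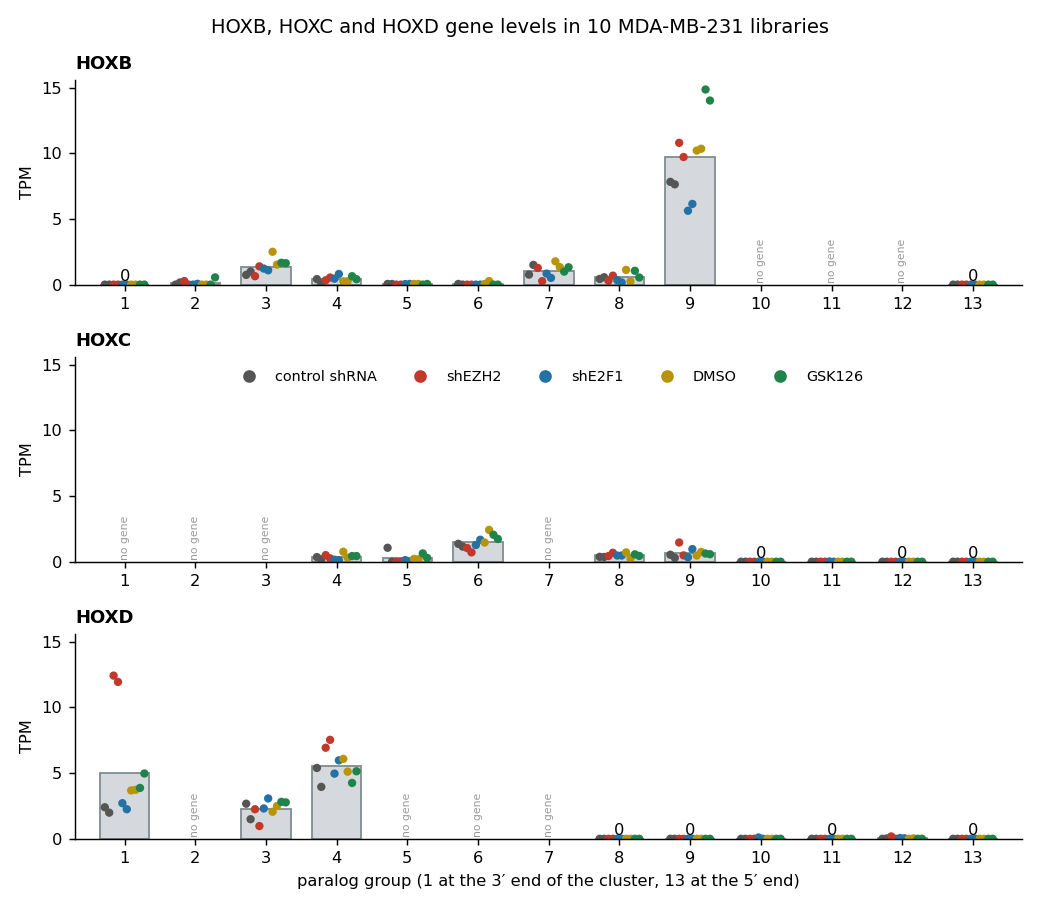
HOX gene levels (TPM, vertical axis) by paralog group (horizontal axis) in the HOXB, HOXC and HOXD clusters, with points for the 10 libraries, colored by group, and bars for their mean; a 0 marks genes with no count in any library. HOXB9, HOXD4, HOXD1 and HOXD3 stand out, and the 2 shEZH2 libraries lie above the rest at HOXD1.

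HOXB9, HOXD4, HOXD1, HOXD3, HOXC6, HOXB3 and HOXB7 made up the expressed set. HOXB9 (ENSG00000170689, chr17:48621156-48626358), a posterior-group gene, was at 7.82 and 7.63 TPM in control shRNA, 10.79 and 9.71 in shEZH2, 5.62 and 6.14 in shE2F1, 10.20 and 10.34 in DMSO, and 14.85 and 14.01 in GSK126. HOXD4 (ENSG00000170166, chr2:176151550-176153226) was at 5.39 and 3.95 TPM in control shRNA, 6.93 and 7.53 in shEZH2, 4.96 and 5.97 in shE2F1, 6.08 and 5.11 in DMSO, and 4.25 and 5.14 in GSK126. HOXB9 lay above HOXD4 in 10 of 10 libraries, although their ranges overlapped. HOXD1 (ENSG00000128645, chr2:176188668-176190907) was at 2.40 and 1.99 TPM in control shRNA, 12.42 and 11.94 in shEZH2, 2.71 and 2.25 in shE2F1, 3.68 and 3.73 in DMSO, and 3.87 and 4.97 in GSK126. It was next to HOXD4 by its mean and the highest HOX gene of all in both shEZH2 libraries. HOXD3 (ENSG00000128652, chr2:176136612-176173102) was at 2.67 and 1.49 TPM in control shRNA, 2.25 and 0.97 in shEZH2, 2.31 and 3.07 in shE2F1, 2.06 and 2.49 in DMSO, and 2.81 and 2.77 in GSK126. It lay below HOXD1 in 8 libraries.

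The other 3 expressed genes were close to the 1 TPM line. HOXC6 was at 1.36 and 1.15 TPM in control shRNA, 1.04 and 0.71 in shEZH2, 1.27 and 1.67 in shE2F1, 1.46 and 2.42 in DMSO, and 2.05 and 1.73 in GSK126. HOXB3 was at 0.74 and 0.99 TPM in control shRNA, 0.64 and 1.39 in shEZH2, 1.22 and 1.09 in shE2F1, 2.5 and 1.52 in DMSO, and 1.66 and 1.63 in GSK126. HOXB7 was at 0.76 and 1.5 TPM in control shRNA, 1.27 and 0.26 in shEZH2, 0.84 and 0.51 in shE2F1, 1.77 and 1.33 in DMSO, and 0.99 and 1.32 in GSK126. The ranges of HOXC6, HOXB3 and HOXB7 overlapped, with HOXC6 above HOXB3 in 8 libraries and above HOXB7 in 7. The HOXB7 values rested on 2 to 16 counts a library and on an effective length that the estimate set anywhere from 299.6 to 1199 bases.

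Just below the line came HOXC9 with a mean of 0.647 TPM, HOXB8 with 0.544, HOXC8 with 0.473 and HOXB4 with 0.420. HOXA13 had a mean of 0.361 TPM and was the one HOXA gene found in every library, with 12 to 33 counts. HOTTIP, the noncoding RNA that starts beside HOXA13 on the opposite strand, had 19.5 counts in the 10 libraries together. HOXB2 had a mean of 0.104 TPM from 8 counts in 4 libraries, and HOXB7 one of 1.05 TPM, so both stood next to a class limit.

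Summed over the 39 genes, the HOX level was 22.8 ± 2.99 TPM (SD, n = 2) in control shRNA, 37.6 ± 2.55 in shEZH2, 22.5 ± 1.77 in shE2F1, 30.8 ± 1.58 in DMSO and 34.97 ± 0.113 in GSK126. HOXB held 44.6% of it on average (34.5% to 55% over the libraries), HOXD 43.0% (31.3% to 57.2%), HOXC 11.04% (5.96% to 14.7%) and HOXA 1.35% (0.571% to 2.13%). The HOXD share was highest in the shEZH2 libraries, at 55.3% and 57.2%, where HOXD1 alone gave 12.42 and 11.94 TPM. Sums in TPM carry a shift of that scale. Its median log2 change over all genes against control shRNA was 0.15 in shEZH2 and 0.19 in shE2F1.

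**Figure D2:**
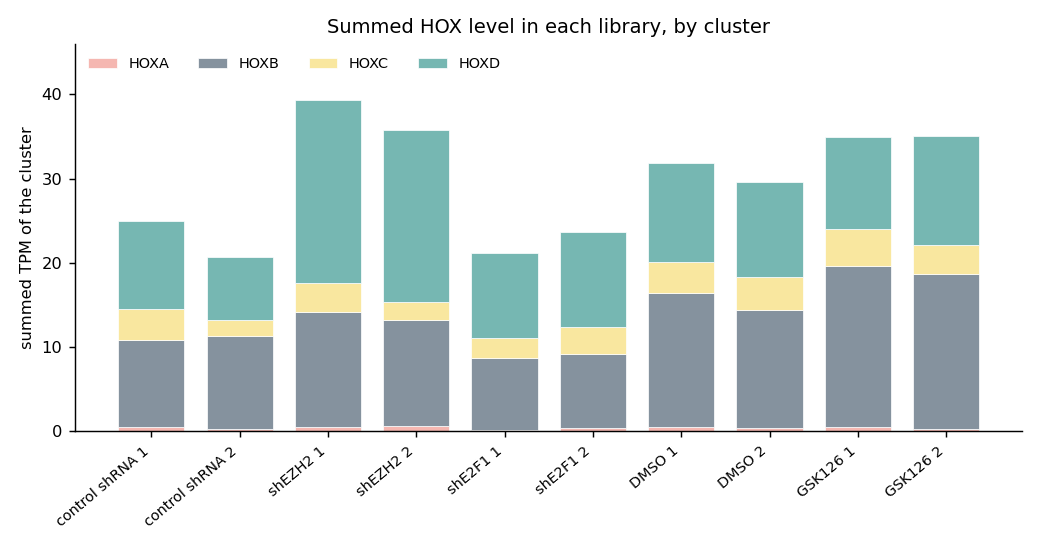
Summed TPM of each cluster (stacked bars, vertical axis) in each of the 10 libraries (horizontal axis). The HOXD part of the bar is 21.8 and 20.4 TPM in the shEZH2 libraries and 7.46 to 12.9 TPM in the other 8.

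RefSeq promoter windows (GRCh38.p14, 250 bases before to 50 after a start site) were at hand for 20 of the 39 genes, as 26 distinct windows. Those of 4 HOXD genes are shown, since they set the gene that rose beside EZH2 loss (HOXD1) next to its neighbours HOXD3 and HOXD4 and to the silent HOXD8. They run 5′ to 3′ on the + strand in lower case, and capitals mark each CpG dinucleotide, the DNA methylation site in which CpG islands are rich. HOXD1 is at chr2:176188418-176188717, HOXD3 at chr2:176157057-176157356, HOXD4 at chr2:176151300-176151599 and HOXD8 at chr2:176129455-176129754. The HOXD3 window belongs to a start inside the gene, at 176157307. The annotated span of HOXD3 begins at 176136612, where no window was at hand.
HOXD1: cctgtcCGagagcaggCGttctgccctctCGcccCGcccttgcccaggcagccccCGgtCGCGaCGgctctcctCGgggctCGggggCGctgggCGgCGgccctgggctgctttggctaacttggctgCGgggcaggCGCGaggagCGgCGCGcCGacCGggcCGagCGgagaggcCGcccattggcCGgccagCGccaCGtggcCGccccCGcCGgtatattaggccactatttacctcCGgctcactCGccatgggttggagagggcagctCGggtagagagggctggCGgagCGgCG
HOXD3: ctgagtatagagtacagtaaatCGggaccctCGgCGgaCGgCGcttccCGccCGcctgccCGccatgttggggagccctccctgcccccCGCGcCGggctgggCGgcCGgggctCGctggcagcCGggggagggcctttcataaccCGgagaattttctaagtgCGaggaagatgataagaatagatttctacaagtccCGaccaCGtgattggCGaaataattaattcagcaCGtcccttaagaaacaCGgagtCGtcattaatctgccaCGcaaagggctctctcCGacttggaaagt
HOXD4: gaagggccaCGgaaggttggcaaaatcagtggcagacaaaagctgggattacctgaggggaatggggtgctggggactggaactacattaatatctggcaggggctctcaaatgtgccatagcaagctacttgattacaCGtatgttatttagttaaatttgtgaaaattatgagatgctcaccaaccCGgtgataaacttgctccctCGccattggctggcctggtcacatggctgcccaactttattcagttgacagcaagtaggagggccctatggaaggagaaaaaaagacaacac
HOXD8: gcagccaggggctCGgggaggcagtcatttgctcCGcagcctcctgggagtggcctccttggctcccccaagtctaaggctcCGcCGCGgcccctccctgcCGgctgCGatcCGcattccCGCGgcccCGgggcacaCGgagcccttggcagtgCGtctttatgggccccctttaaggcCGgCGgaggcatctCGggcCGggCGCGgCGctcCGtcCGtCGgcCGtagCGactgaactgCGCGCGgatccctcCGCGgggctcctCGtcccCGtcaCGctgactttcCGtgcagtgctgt

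The CpG count of a window varied among expressed and among silent genes. HOXD1 had 36 CpGs in its 300 bases, the silent HOXD8 had 34, HOXD3 had 25 and HOXD4, the second highest HOX gene by mean TPM, had 4. Over the 21 windows of silent genes the count ran from 0 to 34 with a median of 22, and the median over 34943 promoter windows of the genome was 14. HOXA13 had 44, the most of any HOX window. The letters TATAAA, searched on both strands, were in none of the 4 windows shown, in 5 of the 26 HOX windows and in 11.6% of all windows. The pattern TTTNNCGC, which takes in E2F sites and is broader than them, was in none of those 4, in 4 of the 26 and in 6.85% of all windows.

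HAGLR (ENSG00000224189, chr2:176164051-176188958, read from the - strand) has 4 start sites in RefSeq. The nearest lies 96 bases upstream of the HOXD1 start, inside the window shown, and another 290 bases downstream, so that the RNAs of both genes leave the same stretch of DNA in opposite directions.

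The first comparison asked what loss of EZH2 does to these Polycomb targets. HOXD1 was called higher, and none of the HOX genes tested was called lower. HOXD1 was at 2.86 and 2.52 CPM in control shRNA and at 13.2 and 13.1 in shEZH2, from 54 and 42 counts against 175 and 228. The groups were far apart and their libraries close together. The change was 4.83-fold, or 2.27 ± 0.21 on the log2 scale (fit ± SE; edgeR quasi-likelihood test, adjusted p = 1.3e-05).

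Only 10 of the 39 genes had enough counts to be tested in the knockdown libraries, and 1 was called, at an adjusted p below 0.01 and over 2-fold. Over all 15373 genes tested, 2803 were called, which is 18.2%, so 1 of 10 is not a result about HOX genes as a set. The median log2 change of the 10 was 0.43, beside -0.02 over all genes. The 29 genes left out were the 24 silent ones and HOXB2, HOXB7, HOXB8, HOXC4 and HOXC5.

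The silent class was set by the mean over all 10 libraries, shEZH2 and GSK126 among them. A gene that rose well in those libraries could have left the class. Low counts of its members there are thus partly fixed by the definition and do not answer whether silent genes were switched on. The 24 silent genes had 3 and 2 counts in all in the control shRNA libraries, 1 and 0 in shEZH2 and 5 and 2 in shE2F1. In DMSO they had 3 and 3 counts, and in GSK126 2 and 1. Their sum thus stayed below the floor of 3 counts in each shEZH2 and GSK126 library, and a rise below that floor would not be seen.

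HOXD3 went the other way from HOXD1 without passing the test. It was at 3.28 and 2.34 CPM in control shRNA and 1.58 and 1.32 in shEZH2, which did not overlap, while the TPM values given above did. Its log2 change was -0.98 ± 0.33 (edgeR adjusted p = 0.025), -0.57 with GC and length corrected for (edgeR adjusted p = 0.149) and -0.32 on the TPM scale (limma adjusted p = 0.507). HOXD4, which lies within the annotated span of HOXD3, was at 3.60 and 2.82 CPM in control shRNA and 4.14 and 4.66 in shEZH2, a log2 change of 0.44 ± 0.26 (edgeR adjusted p = 0.17). HOXA13 was at 0.741 and 0.960 CPM in control shRNA and 1.66 and 1.90 in shEZH2, a log2 change of 1.06 ± 0.43 that missed the threshold (edgeR adjusted p = 0.055). HOXB9, the highest HOX gene, gave 0.21 ± 0.14 (edgeR adjusted p = 0.24). The other 5 tested genes, HOXB3, HOXB4, HOXC6, HOXC8 and HOXC9, had log2 changes between -0.68 and 0.78, none with an adjusted p below 0.18.

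HAGLR moved with HOXD1, by less. It was at 23.2 and 23.6 CPM in control shRNA and 38.6 and 39.8 in shEZH2. The log2 change was 0.73 ± 0.11 (edgeR adjusted p = 0.00022), under 2-fold. Of the exonic bases of HOXD1, 7.7% are also exonic in HAGLR and 52.4% in ENSG00000279160, both on the opposite strand. The latter had 0 counts in all 10 libraries. The kit marks strand, but the strand setting of the counting is not given in the sources used here, so reads of HOXD1 and HAGLR in their shared bases cannot be told apart from these files.

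Of 57 noncoding genes within the 4 clusters, 51 were silent, 43 were at 0 counts throughout, and HAGLR was the one expressed and the one tested. HOTAIR, a noncoding RNA of the HOXC cluster known for binding PRC2, had 3 counts in all. The protein-coding genes just outside the clusters were mostly on, with 19 of 24 expressed and 2 silent. In shEZH2, 20 of the 24 were tested and 3 were called, beside 18.2% of all genes, all of them lower, namely ATP5MC1 (log2 change -1.03), ATP5MC2 (-1.16) and SMUG1 (-1.14), which encode ATP synthase subunits and a uracil-DNA glycosylase and flank HOXB and HOXC. LNPK and MTX2, on either side of HOXD, were not called, and in shE2F1 0 of the 20 were, beside 11.6% of all genes.

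**Figure D3:**
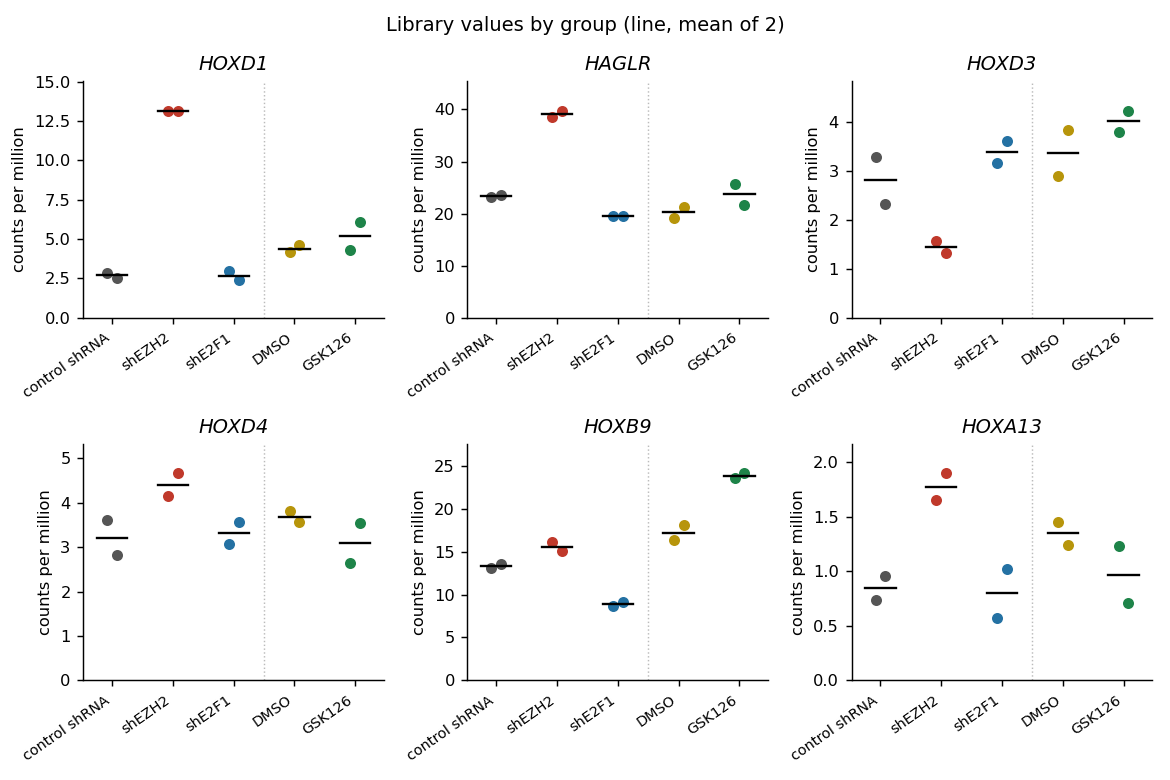
CPM (vertical axes, from 0) of 5 HOX genes and the HOXD antisense RNA HAGLR in the 5 groups (horizontal axes); points are libraries, lines the mean of 2, and the dotted line parts the transduced cells from the drug experiment. HOXD1 is at 13.2 and 13.1 CPM in shEZH2 and at 2.37 to 6.07 CPM in the other 8 libraries.

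The second comparison asked whether loss of E2F1, a cell-cycle transcription factor, acts on the same genes. It left HOXD1 near its control level, at 2.97 and 2.37 CPM. The log2 change of HOXD1 was -0.02 ± 0.23 (edgeR adjusted p = 0.96). HOXB9 was lower in both shE2F1 libraries, at 8.67 and 9.11 CPM against 13.1 and 13.6 in control shRNA. Its change of -0.59 ± 0.15 on the log2 scale had an adjusted p of 0.0072 in the edgeR test but was under 2-fold. So 0 of 10 HOX genes were called, where 11.6% of all 15373 genes were, with 1 of the 10 (HOXB9) at an unadjusted p below 0.05 in edgeR and 0 called by DESeq2 or limma. The other 8 tested genes had log2 changes from -0.10 to 1.08, the largest being HOXB4 at 1.08 ± 0.66, from 10 and 2 against 11 and 17 counts.

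Set directly against each other, shEZH2 and shE2F1 gave 2 called HOX genes, in opposite directions. HOXD1 was higher in shEZH2 by 2.29 ± 0.21 on the log2 scale (edgeR adjusted p = 6.5e-06). HOXD3 was at 1.58 and 1.32 CPM in shEZH2 and 3.16 and 3.61 in shE2F1, which is 2.35-fold lower, or -1.23 ± 0.32 (edgeR adjusted p = 0.0066). The 2 of 10 stand beside 23.3% of all genes. The HOXD3 call was lost when any of the 4 libraries was left out (adjusted p 0.015 to 0.047 in edgeR), by DESeq2 and with GC and length corrected for. The change itself was -1.09 to -1.35 without a library, -1.22 in DESeq2 and -0.82 with GC and length corrected for. On the TPM scale the change was -0.66 in limma, and the effective length of HOXD3 was 1136 bases in the first shEZH2 library and 1760 to 2154 in the other 9.

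HOXB9 was higher in shEZH2 than in shE2F1 by 0.80 ± 0.15 on the log2 scale (edgeR adjusted p = 0.00073), under 2-fold, and by 1.09 with GC and length corrected for, which called it. HOXA13 was higher by 1.16 ± 0.42 without being called (edgeR adjusted p = 0.035). HAGLR was at 19.4 and 19.6 CPM in shE2F1 and higher in shEZH2 by 1.00 ± 0.11, 2-fold (edgeR adjusted p = 2e-05).

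**Figure D4:**
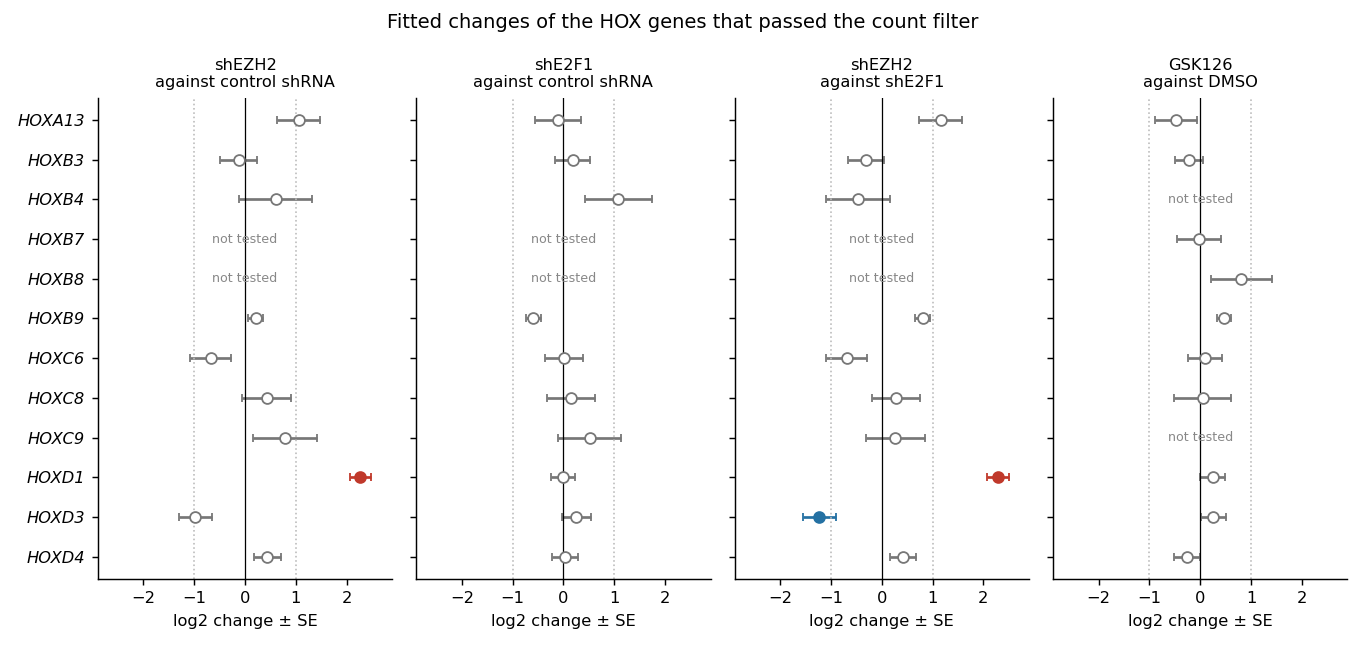
Log2 change ± SE (horizontal axes) of the HOX genes tested in 4 comparisons (panels), with filled points for called genes and dotted lines at 2-fold. HOXD1 is called higher in shEZH2 against control shRNA (2.27) and against shE2F1 (2.29), HOXD3 lower in the latter (-1.23), and none in shE2F1 against control shRNA or in GSK126.

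The drug comparison asked whether blocking the enzyme acts as removing the protein does. Enzyme activity was not measured in these libraries, and the paper reports reduced H3K27me3 protein levels after GSK126. In GSK126, 0 of 10 tested HOX genes were called, beside 0% of 14632 genes. Unadjusted p-values were below 0.05 for 1 HOX gene and 577 genes in edgeR, and DESeq2 called 11 genes, none of them HOX. HOXD1 was at 4.16 and 4.63 CPM in DMSO and 4.33 and 6.07 in GSK126, so that the groups overlapped, and its log2 change was 0.24 ± 0.24 (edgeR adjusted p = 1). HOXD3 gave 0.26 ± 0.24 and HOXD4 -0.26 ± 0.25 on the log2 scale. HOXB9 was the gene with the unadjusted p below 0.05. It was at 16.3 and 18.1 CPM in DMSO and 23.5 and 24.1 in GSK126, without overlap, a log2 change of 0.47 ± 0.13 (edgeR unadjusted p = 0.00999, adjusted p = 1). Within same-numbered libraries the HOXB9 ratio of GSK126 to DMSO was 1.44 and 1.33. The fit above did not pair libraries by number. With a replicate block HOXB9 had an edgeR adjusted p of 0.00026, still under 2-fold. That fit called 68 genes, none of them HOX. The remaining 6, HOXA13, HOXB3, HOXB7, HOXB8, HOXC6 and HOXC8, ranged from -0.48 to 0.81.

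The change in shEZH2 was then tested against the change in GSK126, in a fit of all 10 libraries. The change of HOXD1 after EZH2 depletion exceeded that after its inhibition, where it was not called, by 2.04 ± 0.32 on the log2 scale (edgeR adjusted p = 0.00051). It was the 1 of 13 HOX genes called, where 13.8% of 15773 genes were. HOXD3 differed by -1.22 ± 0.40 and was not called (edgeR adjusted p = 0.032), and HOXA13 by 1.55 ± 0.59 (edgeR adjusted p = 0.059). The comparisons share libraries, and the transduced and drug-treated cells were separate experiments with their own controls.

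HOXC5 could not be read in these files. It had 20 counts in the first control shRNA library, 0 in the second, 0 in both shEZH2 libraries and 2.36 and 0 in shE2F1, and in the drug experiment 3.97, 3.52, 10 and 4.96. Of its exonic bases 67.3% are shared with the readthrough loci ENSG00000273046 and ENSG00000273049 on the same strand, and where HOXC5 had 0 counts in the second control library these had 6.55 and 2.45. It was left out of the knockdown fit for low counts, and in the fit of all 10 libraries it was not called (edgeR adjusted p = 0.047).

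Genes that act on or with HOX genes were read from lists of known members, and their counts stand beside 18.2% of all genes called in shEZH2 and 11.6% in shE2F1. Of 14 PRC2 genes, 13 were expressed and tested. In shEZH2, EZH2 itself fell (log2 change -1.79), as did PHF19 (-1.09), an accessory subunit that binds methylated H3K36, while JARID2 (1.23), an accessory subunit that helps to recruit PRC2, rose and 10 were not called. In shE2F1, PHF19 fell (-1.49) and EZH1, the other catalytic subunit, rose (1.24). The median of the 13 was 0.21 in shEZH2 beside -0.02 over all genes, and 0.04 in shE2F1 beside 0.00. JARID2 was at 87.95 and 74.96 CPM in control shRNA and 180.2 and 204.6 in shEZH2, and its groups did not overlap.

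All 16 PRC1 genes were expressed. In shEZH2, BMI1 rose (1.01) and 15 were not called (1 of 16, beside 18.2% of all genes), and in shE2F1 PHC1 fell (-1.02; 1 of 16, beside 11.6%). Their median log2 change was 0.27 in shEZH2 and -0.01 in shE2F1. Of 13 trithorax and H3K27 demethylase genes, all expressed, KMT2C rose in shEZH2 (1.05), and MEN1 fell in shE2F1 (-1.07). KMT2C is an H3K4 methyltransferase, and MEN1 encodes menin, a partner of the KMT2A methyltransferase at HOX genes. The median was 0.32 in shEZH2 and -0.07 in shE2F1.

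The TALE homeodomain proteins PBX, MEIS and PKNOX bind DNA together with HOX proteins. Of 9 such genes 7 were expressed and 7 tested, with a median of -0.42 in shEZH2 and 0.04 in shE2F1. In shEZH2, 1 was called higher and 1 lower, beside 18.2% of all genes, and in shE2F1 1 higher and 1 lower, beside 11.6%. PBX3 rose in shEZH2 (1.26), from 24.1 and 31.1 CPM to 60.7 and 72.2, and was at 14.2 and 15.3 in shE2F1. MEIS3 fell in shEZH2 (-2.09) and rose in shE2F1 (1.21), at 2.96 and 2.04 CPM in control shRNA, 0.678 and 0.528 in shEZH2 and 6.10 and 5.63 in shE2F1. PBX3 and MEIS3 moved in opposite directions in shEZH2.

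Of 54 other developmental homeobox genes 17 were tested. In shEZH2, 2 were called higher and 5 lower, beside 18.2% of all genes called. In shE2F1, 1 was called higher and 3 lower, beside 11.6%. These shares were not tested. DLX4 (1.85) and MNX1 (1.10) rose in shEZH2, and those that fell included PITX1 (-2.52), SIX2 (-1.78), IRX3 (-1.45) and IRX5 (-1.26). MNX1 rose in shE2F1 (1.3), and those that fell included VAX2 (-1.76) and PAX8 (-1.27). PITX1, a hindlimb and pituitary factor and the most abundant of those called, was at 101.8 and 78.1 CPM in control shRNA, 15.7 and 15.9 in shEZH2 and 53.5 and 45.1 in shE2F1. The median of the 17 was -0.40 in shEZH2 and 0.36 in shE2F1.

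Retinoic acid switches on HOX genes from the 3′ end of a cluster in development. Of 17 genes of its pathway 9 were expressed and 9 tested. Of those tested, 1 was called in shEZH2, beside 18.2% of all genes, and 2 in shE2F1, beside 11.6%. In shEZH2 CRABP2, which carries retinoic acid to its receptors, fell (-2.17), from 8.58 and 8.22 to 2.18 and 1.61 CPM. In shE2F1 the retinal dehydrogenases ALDH1A3 (2.59 ± 0.17) and ALDH1A2 (4.18 ± 0.76) rose. ALDH1A3 went from 7.09 and 6.42 to 36.1 and 45.8 CPM. The median was -0.54 in shEZH2 and 0.40 in shE2F1. None of the genes on any of these lists was called in GSK126. That fit called 0 of all 14632 genes tested, so this is not a result about the lists.

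The markers also moved with the knockdowns, and the changes in shEZH2 went with base composition. In shEZH2, VIM, CAV1 and AXL fell and CDH1 rose, and of the fibroblast list COL1A1 and LUM rose and PDGFRB fell. In shE2F1, LUM and CDH1 rose and AXL and EPCAM fell. The change in shEZH2 fell with the GC content of a gene (r = -0.24 across 15366 genes, which are not independent). In shE2F1 r was -0.02. The median GC content was 55.4% for the tested HOX genes against 48% for all. With GC and length corrected for, the HOXD1 change in shEZH2 was 2.60. That of HOXD4 went from 0.44 to 0.92 (edgeR adjusted p = 0.0093) and that of HOXB9 from 0.21 to 0.50 (edgeR adjusted p = 0.0115), both under 2-fold. The part of the markers and of GC in the HOX values was not otherwise tested.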

How the data were processed

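Poly(A) RNA-seq of MDA-MB-231 cells was analysed in 10 distinct libraries of 5 groups, grouped by the labels. The authors aligned reads to hg38 with STAR and estimated counts with RSEM, per the labels (STAR 2.7.2b, RSEM 1.3.1 in the submitters' processing notes). The paper names another STAR version. The deposited values used here were expected counts per gene, TPM as scaled by RSEM, and effective length. Expected counts were rounded and tested with edgeR 4.0.16 in R 4.3.3 (quasi-likelihood, TMM, filterByExpr, Benjamini-Hochberg over all genes tested), in a fit of the 6 transduced libraries, 1 of the 4 drug libraries and 1 of all 10 for the difference of effects. Calls needed more than 2-fold and an adjusted p below 0.01, the limits given with the study's own RNA-seq comparison. CPM used TMM over the 10 libraries. Totals of 13198932 to 20055550 counts set the precision.

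Symbols came from GENCODE 44, which held 99.9% of the 62703 gene IDs. HOX genes called in any comparison or with a mean of at least 1 TPM are given in every library, and list genes by counts with those called named, apart from a few genes that are not reported here. The members and lists were chosen with earlier results of these data known. Alternatives were DESeq2 1.42.0, its size factors, other filters, a replicate block, GC and length offsets, limma 3.58.1 on log2(TPM + 0.5), other sets of libraries and leaving out each library. The fits were tested on simulated data.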

Additional observations from a re-analysis of the deposited data

Results flagged for a closer look

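HOXD1 met the test of a difference between effects in 2 contrasts. Its change in shEZH2 exceeded that in shE2F1 by 2.29 ± 0.21 on the log2 scale (edgeR adjusted p = 6.5e-06), and that in GSK126 by 2.04 ± 0.32 (edgeR adjusted p = 0.00051), with both shEZH2 libraries above all other 8. HOXD3 differed between shEZH2 and shE2F1 by -1.23 ± 0.32 (edgeR adjusted p = 0.0066), in a call lost without any of those 4 libraries. HAGLR differed between them by 1.00 ± 0.11 (edgeR adjusted p = 2e-05). With 2 libraries a group, no library could be tested as an outlier.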

How the results depend on the processing

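HOXD1 was called under every alternative run in shEZH2 against control shRNA (log2 change 2.19 to 2.61), against shE2F1 (2.09 to 2.68) and against the GSK126 effect (1.81 to 2.42). The number of HOX genes called in shEZH2 against control shRNA was 2 without a count filter (HOXC5 added), 2 at an adjusted p below 0.05 with any fold (HOXD3 added), and 1 to 2 when a library was left out, HOXC5 being called down without the second control shRNA library. In shE2F1 it was 1 at an adjusted p below 0.05 (HOXB9). In shEZH2 against shE2F1 it was 1 with DESeq2, 1 with limma on TPM and 1 at a mean of at least 50 counts, where HOXD3 was not tested, 4 at an adjusted p below 0.05, and 1 to 2 when a library was left out. Against the GSK126 effect it was 2 without a filter, 3 at an adjusted p below 0.05, and 1 to 2 when a library was left out. The HOXD1 change in shE2F1, near 0, turned positive without a filter (0.003), at a mean of at least 50 counts (0.027) and in limma (0.145), and ran from -0.19 to 0.13 over left-out libraries. That in GSK126 ran from -0.013 to 0.47 over left-out libraries and was negative only without the second GSK126 library. The cause of these moves was not tested. On the TPM scale the median log2 change of all genes was 0.15 in shEZH2, 0.19 in shE2F1 and 0.11 against the GSK126 effect, where counts gave -0.02, 0.00 and -0.03, and the calls split into 1225 up and 742 down, 857 and 368, and 586 and 373, where counts gave 1156 and 1647, 861 and 916, and 809 and 1367.

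The labels do not say whether same-numbered libraries of different groups belong together. Deviations of same-numbered libraries correlated at 0.663 for DMSO and GSK126, and at 0.0408, 0.0471 and 0.205 for the 3 pairs of transduced groups. With a replicate block the HOX genes called stayed 1, 0, 2, 0 and 1 in the 5 comparisons, in the order given in the report, while calls over all genes in GSK126 went from 0 to 68. HOXB9 in GSK126 then had an edgeR adjusted p of 0.00026 at a log2 change of 0.47, still under 2-fold. The number of expressed HOX genes was 7, and 9 at a mean of at least 0.5 TPM, 7 when every library of a group had to reach 1 TPM, and 6 to 7 with 1 replicate number left out. The cluster shares moved by less than the spread between replicates under each alternative run. Low counts limit what can be said of the 29 HOX genes not tested in the knockdown libraries.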
